A study of Mus musculus with 24 samples.

Results

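The genes described here are 50 mouse genes of G1/S control and DNA replication, listed by name and all present in a table of 21671 genes measured by RNA-seq. They comprise 9 cyclins, kinases and a phosphatase, 7 E2F and pocket proteins, 12 origin licensing factors, 7 factors of helicase activation, 14 proteins of the replication fork and Uhrf1, a chromatin maintenance factor. All 50 were high enough to be tested. They were measured in 3T9 cells, an immortalised line of mouse fibroblasts, infected with an empty vector (EV) or with BP-MycER-WT, BP-MycER-HEA or BP-MycER-RA, and treated with OHT during 4 h or 8 h, with 3 libraries in each of the 8 groups. In MycER the Myc protein is joined to the part of the oestrogen receptor that binds hormone, and OHT (4-hydroxytamoxifen) activates the fusion. As background from published work on these proteins, HEA exchanges residues of the Myc basic region that contact the bases of the E-box, and RA exchanges arginines that contact the DNA backbone. The EV cells also received OHT, Myc transcripts were read in them too, and no library without OHT was used, so differences between the infected populations that preceded OHT cannot be told apart from those that followed it. The libraries of a group are numbered 1 to 3 without a statement that they came from separate cultures, so the p-values refer to a spread between samples that may be technical only.

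Passage from G1 into S phase is driven by D-type cyclins with Cdk4 or Cdk6 and by E-type cyclins with Cdk2. These kinases inactivate the pocket proteins Rb1 and Rbl1, which otherwise hold E2F transcription factors in check, and E2F targets include many genes for making DNA. Before S phase the origin recognition complex, Cdc6 and Cdt1 load the MCM helicase, and in S phase Cdc45 and the GINS complex activate it and polymerases copy the strands. Myc is known in fibroblasts as a driver of entry into S phase.

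Levels are RPKM, the reads of a gene corrected for its length and for the size of its library. Differences are log2 fold changes ± SE after 0.5 RPKM was added to every value, and a gene is said to rise or fall where the adjusted p of limma over 12268 genes was at most 0.05. Recovered library totals ran from 9.82 to 12.8 M reads, and the member with the fewest reads in any library was E2f2 with 76. Esr1, which encodes the oestrogen receptor of the constructs, read 0.099 to 0.385 RPKM in the EV libraries and 9.04 to 13.7 in all libraries with MycER, which separates EV from MycER in every library but does not tell the 3 forms apart. Of 10 fibroblast markers 9 were expressed highly enough to be tested, Thy1 being the exception, and their summed level was 542 to 703 RPKM, while the summed epithelial and endothelial markers stayed at or below 0.639. Of the macrophage markers Cd68, Csf1r and Cd14 were high enough to be tested, and that list summed to 16.3 to 26.5 RPKM. Acta1 was the 1 muscle marker tested (list sum 1.60 to 9.13) and Fabp4 the 1 adipocyte marker (2.15 to 6.59), and the part of these markers in the results was not tested. Replicate 2 of EV at 4 h and replicate 3 of WT at both times lay farthest from their group means over all genes, and calls against EV that were lost without them are named below. In RNA from whole cultures fewer cells in a phase of the cell cycle and less RNA per cell cannot be told apart.

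Promoter sequences were looked up because Myc binds the E-box and E2F binds its own sites, and bases are shown for some of the members with either motif. RefSeq (GRCm38.p6) gave an entry for 39 of the 50 genes, and the window is the 250 bases before the annotated start. The authors' own build was mm9, so these coordinates belong to the RefSeq build alone. The E-box searched was CACGTG, which reads alike on both strands. E2F sites searched were TTTCCCGC, TTTCGCGC, TTTGCCGC and TTTGGCGC on either strand, and matches may overlap each other. An E-box was present in 5 of 39 promoters (12.8%), namely those of Cdk4, Cdk6, E2f3, Pola2 and Fen1, against 6.86% of 27025 promoters and 10.05% of those of 9032 tested genes. An E2F site was present in 14 of 39 promoters (35.9%), against 2.16% of all promoters and 4.02% of those of tested genes. Shown are the Cdk4 promoter with 4 E-boxes at chr10:127063285-127063534 (plus strand), the Cdk6 promoter with 1 E-box at chr5:3343643-3343892 (plus strand), and promoters with E2F sites of Cdk2 at chr10:128705052-128705301 (minus strand), Rbl1 at chr2:157204535-157204784 (minus strand), E2f7 at chr10:110745189-110745438 (plus strand), Orc1 at chr4:108579204-108579453 (plus strand) and Mcm6 at chr1:128359706-128359955 (minus strand). Each runs 5′ to 3′ on the strand of the gene and ends at the base before its start, with E-boxes or E2F sites in capitals.
Cdk4: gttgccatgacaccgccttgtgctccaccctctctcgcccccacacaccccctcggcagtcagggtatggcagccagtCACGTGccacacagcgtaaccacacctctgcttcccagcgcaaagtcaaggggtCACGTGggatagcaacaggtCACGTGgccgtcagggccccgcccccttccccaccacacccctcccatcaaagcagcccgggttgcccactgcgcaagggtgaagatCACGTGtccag
Cdk6: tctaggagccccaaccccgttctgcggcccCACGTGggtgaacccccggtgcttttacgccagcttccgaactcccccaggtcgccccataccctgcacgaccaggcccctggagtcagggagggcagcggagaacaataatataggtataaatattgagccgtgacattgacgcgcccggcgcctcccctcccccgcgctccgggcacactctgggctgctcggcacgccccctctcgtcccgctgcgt
Cdk2: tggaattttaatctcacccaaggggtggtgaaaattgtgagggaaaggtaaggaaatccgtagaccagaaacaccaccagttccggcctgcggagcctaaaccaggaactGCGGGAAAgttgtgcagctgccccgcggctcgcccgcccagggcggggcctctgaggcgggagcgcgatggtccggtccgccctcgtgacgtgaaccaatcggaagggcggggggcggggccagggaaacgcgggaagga
Rbl1: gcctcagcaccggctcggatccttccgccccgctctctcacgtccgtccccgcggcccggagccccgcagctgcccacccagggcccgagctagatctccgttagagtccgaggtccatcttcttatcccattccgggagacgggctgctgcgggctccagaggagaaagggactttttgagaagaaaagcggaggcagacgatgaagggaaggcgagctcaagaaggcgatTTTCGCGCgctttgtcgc
E2f7: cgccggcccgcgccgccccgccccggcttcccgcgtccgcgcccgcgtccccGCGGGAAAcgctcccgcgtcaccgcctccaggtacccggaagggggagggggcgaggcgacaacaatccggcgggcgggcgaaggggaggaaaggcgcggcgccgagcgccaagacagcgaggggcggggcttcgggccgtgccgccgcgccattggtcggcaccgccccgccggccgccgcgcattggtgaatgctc
Orc1: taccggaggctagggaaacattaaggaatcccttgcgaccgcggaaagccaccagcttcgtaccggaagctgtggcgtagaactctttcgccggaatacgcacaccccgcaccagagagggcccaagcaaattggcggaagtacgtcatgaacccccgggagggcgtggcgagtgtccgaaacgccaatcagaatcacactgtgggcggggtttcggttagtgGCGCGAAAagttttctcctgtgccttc
Mcm6: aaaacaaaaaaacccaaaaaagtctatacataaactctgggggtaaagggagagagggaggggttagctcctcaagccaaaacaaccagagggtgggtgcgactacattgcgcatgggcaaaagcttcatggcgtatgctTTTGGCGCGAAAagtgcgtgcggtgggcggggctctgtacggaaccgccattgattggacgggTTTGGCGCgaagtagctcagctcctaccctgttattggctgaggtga
The Cdk4 E-boxes begin 172, 118, 98 and 11 bases before the start, and that of Cdk6 begins 220 bases before it. The E2F sites of Rbl1 and Orc1 lie close to the start, at 18 and 27 bases before it, and those of Cdk2 and E2f7 at 140 and 198. Mcm6 has 3 E2F sites, at 110, 106 and 47 bases before the start, and the first and second overlap and form a single run of capitals.

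Few of the 50 genes differed from EV in WT, and many in HEA, where most were lower. In WT, 6 genes rose and 3 fell at 4 h, where 11.6% of all tested genes rose and 14.4% fell. At 8 h, 7 rose and 4 fell, where 15.2% and 20.1% of all tested genes did. In HEA, 5 rose and 29 fell at 4 h, where 17.7% of all tested genes rose and 25.5% fell. At 8 h, 6 rose and 22 fell, where 20.2% and 27.5% did. The share of the 50 genes that passed in WT was near the background for rises and below it for falls, while in HEA the share that fell was above the background and the share that rose below it, at both times. The median log2 fold change of the 50 genes was 0.07 in WT at 4 h and 0.05 at 8 h, against -0.01 and -0.02 over all tested genes. In HEA it was -0.23 and -0.18, against -0.06 and -0.05 over all. The count of 9 in WT at 4 h was 14 (11 higher, 3 lower) with each library centred on its median, 3 (1 and 2) with only the groups compared, and 9 (3 and 6) without the 3 farthest libraries. With median centring 15.5% of all tested genes were higher and 11.6% lower in WT at 4 h. The share of 11 rises among the 50 was above that background, while the share of 3 falls stayed below it. For rises in WT at 4 h the comparison with the background thus depended on the scaling. In HEA at 8 h the split was 6 higher and 13 lower with median centring. Under that scaling 24.9% of all tested genes were higher and 21.5% lower in HEA at 8 h. The share of 13 falls among the 50 was then only slightly above that background. For falls in HEA at 8 h the size of the excess thus also depended on the scaling.

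**Figure D1:**
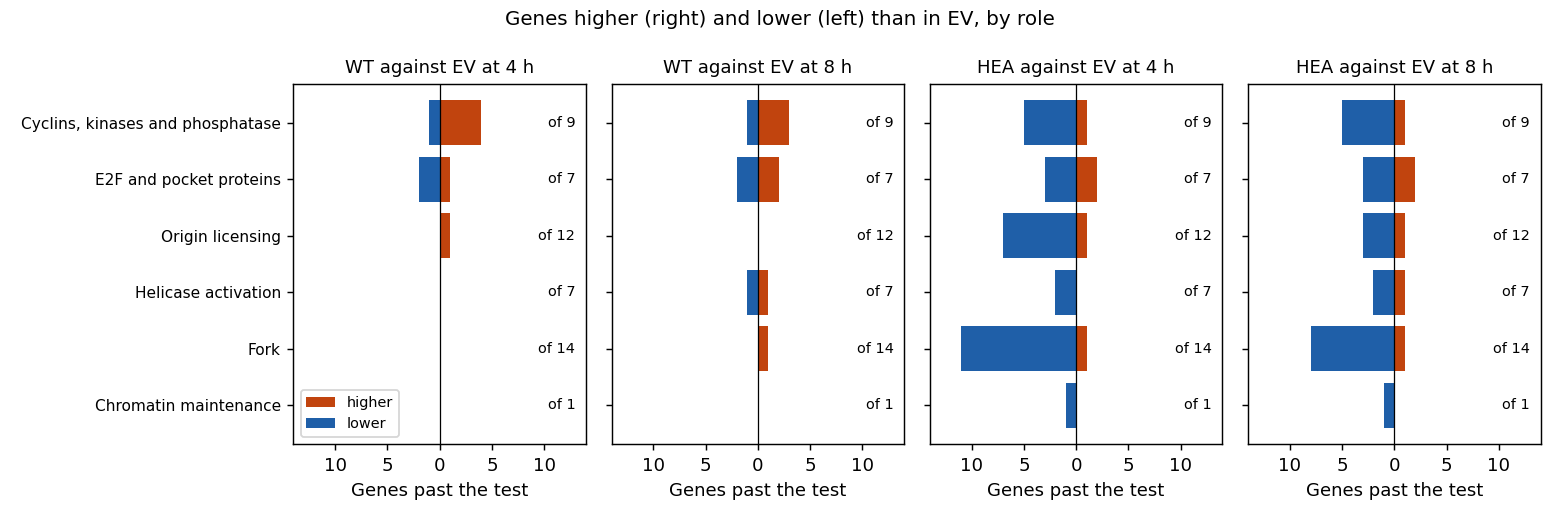
Number of genes of each role that were higher (right of 0) or lower (left of 0) than EV by limma, adjusted p at most 0.05, in WT and HEA at 4 h and 8 h. In HEA at 4 h 11 of 14 fork genes and 7 of 12 licensing genes were lower, where 25.5% of all tested genes were. In WT the calls fell mainly among cyclins, kinases, E2F and pocket proteins.

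**Figure D2:**
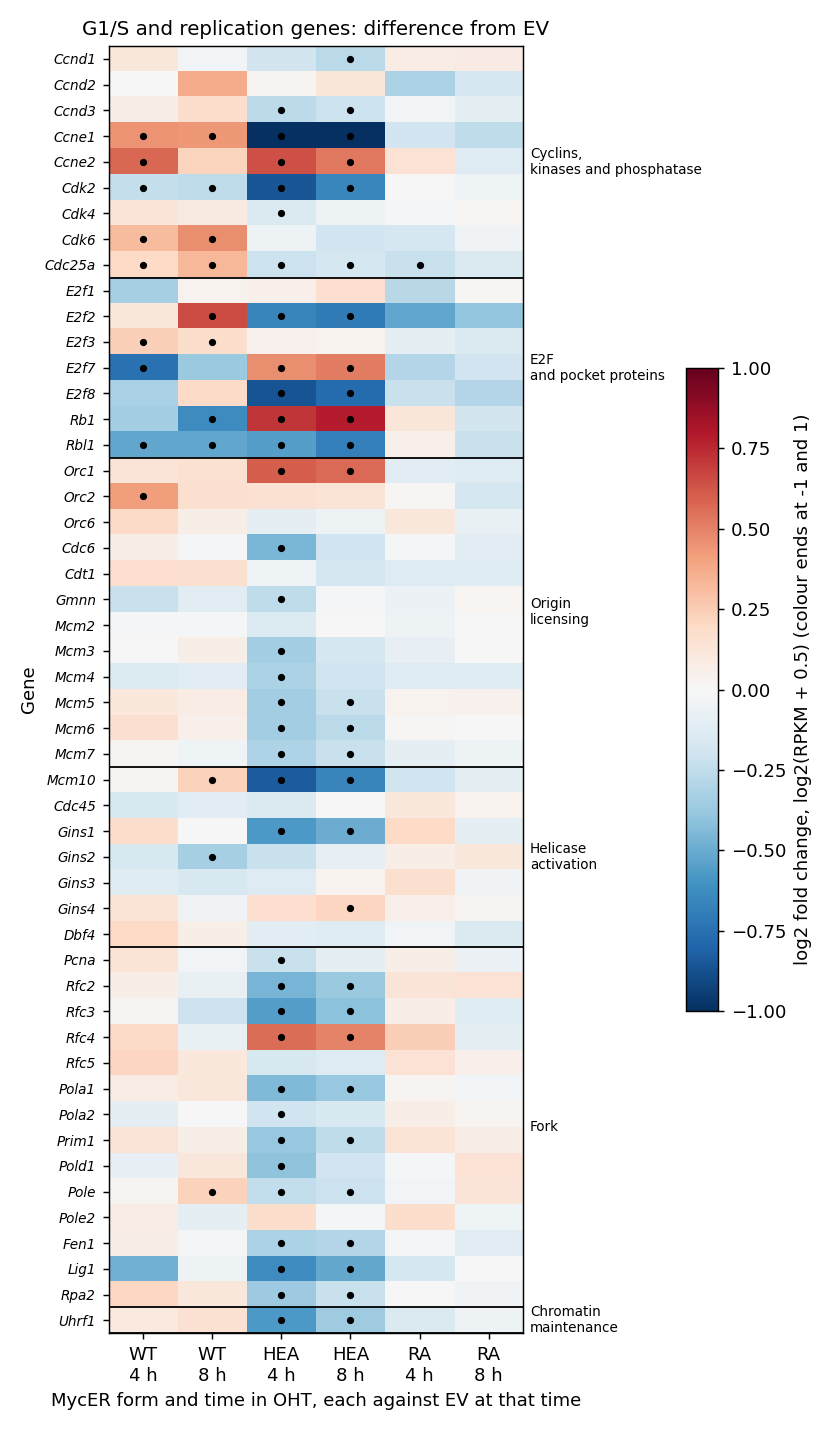
Log2 fold change against EV of each of the 50 genes (rows, grouped by role) in WT, HEA and RA at 4 h and 8 h (columns), with a mark where adjusted p was at most 0.05. The HEA columns are mostly negative, with 29 and 22 genes lower, and the RA columns hold 1 mark, Cdc25a at 4 h.

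Among the 9 cyclins, kinases and phosphatase, 4 rose and 1 fell in WT at 4 h and 3 rose and 1 fell at 8 h. Of all tested genes 11.6% rose and 14.4% fell in WT at 4 h, and 15.2% and 20.1% at 8 h. In HEA 1 of the 9 rose and 5 fell at each time, where 17.7% of all tested genes rose and 25.5% fell at 4 h, and 20.2% and 27.5% at 8 h. Ccne1 encodes cyclin E1, the partner of Cdk2 at the start of S phase. At 4 h its level was 28.7, 27.4 and 26.4 RPKM in EV, 34.7, 36.5 and 42.2 in WT and 15.8, 10.6 and 14.7 in HEA. At 8 h it was 31.0, 29.4 and 29.0 in EV, 42.9, 39.1 and 39.5 in WT and 10.9, 16.6 and 15.1 in HEA. All WT libraries lay above all EV libraries and all HEA libraries below them, at both times. The rise in WT was 0.45 ± 0.13 (adjusted p = 0.0134) at 4 h and 0.43 ± 0.13 (adjusted p = 0.0117) at 8 h, and the fall in HEA was -0.999 ± 0.13 (adjusted p = 3.25e-06) and -1.06 ± 0.13 (adjusted p = 1.18e-06). The call in WT at 4 h was lost without replicate 3 of that group (adjusted p = 0.0801) and without the 3 farthest libraries (0.114).

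Ccne2, which encodes the second E-type cyclin, did not follow Ccne1. It read 12.4, 7.75 and 11.3 RPKM in EV, 12.2, 15.8 and 19.5 in WT and 17.0, 15.4 and 16.5 in HEA at 4 h. At 8 h Ccne2 read 12.5, 13.3 and 11.5 RPKM in EV, 16.05, 16.6 and 11.7 in WT and 18.1, 19.2 and 17.3 in HEA. HEA lay above EV without overlap at both times (0.64 ± 0.16, adjusted p = 0.00341 and 0.53 ± 0.16, adjusted p = 0.0112), so that in HEA the Ccne1 transcript fell and the Ccne2 transcript rose. WT and EV overlapped at both times. The rise in WT at 4 h (0.58 ± 0.16, adjusted p = 0.0126) was lost without replicate 2 of EV at 4 h (0.0915), without replicate 3 of WT at 4 h (0.0963), without the 3 farthest libraries (0.216) and with only the groups compared (0.126), and at 8 h WT did not pass (0.22 ± 0.16, adjusted p = 0.303), though it did without the 3 farthest libraries (0.0141).

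Cdk2, the kinase that both E-type cyclins activate, fell in WT and fell further in HEA. It read 47.95, 43.4 and 45.4 RPKM in EV, 37.2, 37.5 and 40.7 in WT and 25.4, 23.2 and 26.2 in HEA at 4 h. At 8 h Cdk2 read 49.0, 46.2 and 48.4 RPKM in EV, 39.6, 42.2 and 38.2 in WT and 28.0, 30.3 and 32.8 in HEA. The 3 groups were separate at each time, with WT between EV and HEA. The differences from EV were -0.24 ± 0.067 (adjusted p = 0.0109) and -0.26 ± 0.067 (adjusted p = 0.00492) in WT, and -0.86 ± 0.067 (adjusted p = 5.49e-09) and -0.65 ± 0.067 (adjusted p = 1.48e-07) in HEA cells. The call in WT at 4 h was lost without replicate 1 of EV at 4 h (0.0549) and with only the groups compared (0.0895).

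Cdk6, a kinase of the D-type cyclins, rose in WT. Its level was 33.0, 41.0 and 35.7 RPKM in EV, 47.6, 47.3 and 41.8 in WT and 40.2, 32.6 and 32.9 in HEA at 4 h. At 8 h Cdk6 read 35.6, 34.7 and 34.0 RPKM in EV, 49.4, 45.5 and 49.8 in WT and 31.6, 31.4 and 28.2 in HEA. WT lay above EV in all libraries at both times, by 0.32 ± 0.086 (adjusted p = 0.00982) and 0.47 ± 0.086 (adjusted p = 0.000265), and HEA did not pass (-0.05 ± 0.086, adjusted p = 0.65 and -0.19 ± 0.086, adjusted p = 0.0736). At 8 h HEA passed without the 3 farthest libraries (0.0385) and with only the groups compared (0.0226). At 4 h the call was lost without replicate 1 of EV (0.0616) and with only the groups compared (0.0879). Cdk4, the related kinase whose promoter holds 4 E-boxes, did not pass in WT (0.13 ± 0.050, adjusted p = 0.0593 at 4 h and 0.09 ± 0.050, adjusted p = 0.178 at 8 h), though with median centring it passed at 4 h.

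Cdc25a, the phosphatase that removes inhibitory phosphates from Cdk2, rose in WT and fell in HEA. It read 30.9, 32.6 and 32.2 RPKM in EV, 37.8, 37.9 and 34.5 in WT and 28.6, 27.8 and 25.9 in HEA at 4 h. At 8 h Cdc25a read 30.3, 32.9 and 30.6 RPKM in EV, 40.3, 39.7 and 38.6 in WT and 27.1, 29.1 and 26.7 in HEA. The 3 groups did not overlap at either time. WT differed from EV by 0.20 ± 0.057 (adjusted p = 0.0134) at 4 h and 0.33 ± 0.057 (adjusted p = 0.000124) at 8 h, and HEA by -0.21 ± 0.057 (adjusted p = 0.00474) and -0.18 ± 0.057 (adjusted p = 0.0152). Only the WT call at 8 h held under every alternative tried. The WT call at 4 h was lost without replicate 1 of EV (0.0567), without replicate 2 of WT (0.0531), with quantile normalisation (0.0513) and with only the groups compared (0.148). The HEA call at 4 h was lost with only the groups compared (0.0749), and that at 8 h without replicate 2 of EV (0.0793), replicate 1 (0.0543) or replicate 3 (0.0636) of HEA, with quantile normalisation (0.101) and with median centring (0.206). Of the D-type cyclins, Ccnd1 fell in HEA at 8 h (-0.27 ± 0.079, adjusted p = 0.0076), a call lost without replicate 1 of that group (0.0713). Ccnd3 passed as lower in HEA at both times, with calls lost under several alternatives. In WT no D-type cyclin passed. Ccnd2 nevertheless read 72.3, 68.6 and 77.3 RPKM in WT at 8 h against 56.5, 53.3 and 58.8 in EV, without overlap (0.37 ± 0.15, adjusted p = 0.0601). It passed as higher with median centring (0.0287), with only the groups compared (0.00364) and with voom on recovered reads (0.0385), and the authors' deposited table gives it a log2 fold change of 0.39 (adjusted p = 2.97e-05). Ccnd3 at 8 h (0.18 ± 0.084, adjusted p = 0.107) passed as higher with quantile normalisation (0.0180), median centring (0.0329) and voom (0.0470).

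The 7 E2F and pocket proteins moved in both directions. In WT 1 rose and 2 fell at 4 h, where 11.6% of all tested genes rose and 14.4% fell. At 8 h 2 rose and 2 fell in WT, where 15.2% and 20.1% did. In HEA 2 rose and 3 fell at each time, where 17.7% and 25.5% did at 4 h, and 20.2% and 27.5% at 8 h. E2f2, an activating E2F and with Rb1 the lowest of the 50 genes by mean RPKM, read 3.11, 4.07 and 3.27 RPKM in EV, 3.801, 3.41 and 4.13 in WT and 2.79, 1.502 and 1.88 in HEA at 4 h. At 8 h E2f2 read 4.90, 4.35 and 3.996 RPKM in EV, 7.94, 6.15 and 7.64 in WT and 2.64, 2.79 and 2.16 in HEA. WT overlapped EV at 4 h and lay above it at 8 h, and HEA lay below EV at both times. The rise in WT at 8 h was 0.65 ± 0.17 (adjusted p = 0.00449), and the fall in HEA was -0.66 ± 0.17 (adjusted p = 0.00311) at 4 h and -0.70 ± 0.17 (adjusted p = 0.00174) at 8 h. E2f3, another activating E2F with an E-box and an E2F site in its promoter, rose slightly in WT, from 28.9, 26.3 and 26.8 to 32.4, 32.6 and 32.1 RPKM at 4 h and from 27.5, 28.5 and 27.1 to 30.9, 32.3 and 31.0 at 8 h, without overlap. The differences were 0.24 ± 0.059 (adjusted p = 0.0049) and 0.18 ± 0.059 (adjusted p = 0.0236). With only the groups compared neither passed (0.0952 and 0.057), and that at 8 h was also lost without replicate 1 (0.0669) or 3 (0.0825) of EV or replicate 2 of WT (0.0808). In HEA E2f3 did not pass, at 29.2, 28.6 and 26.6 RPKM at 4 h and 29.4, 29.0 and 26.7 at 8 h.

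E2f7 and E2f8 encode the atypical E2F proteins, which repress E2F targets, and they moved apart in HEA. E2f7 read 11.96, 14.4 and 13.3 RPKM in EV, 8.63, 8.80 and 5.94 in WT and 22.0, 17.8 and 15.99 in HEA at 4 h. At 8 h E2f7 read 12.9, 15.5 and 13.6 RPKM in EV, 8.91, 10.97 and 12.5 in WT and 20.98, 21.8 and 17.9 in HEA. At both times all WT libraries were below all EV libraries and all HEA libraries above them. The fall in WT passed at 4 h (-0.74 ± 0.15, adjusted p = 0.00113) and not at 8 h (-0.37 ± 0.15, adjusted p = 0.0621). At 8 h it passed with voom on recovered reads (0.0406), without the 3 farthest libraries (0.0113) and without replicate 3 of WT (0.0314), and the authors' deposited table calls it lower (adjusted p = 0.0322). E2f7 rose in HEA at 4 h (0.47 ± 0.15, adjusted p = 0.0167) and at 8 h (0.51 ± 0.15, adjusted p = 0.00854), and the call at 4 h was lost without replicate 1 of EV (0.0723) or replicate 1 of HEA (0.102). E2f8 read 10.6, 13.3 and 14.1 RPKM in EV, 11.04, 10.2 and 8.76 in WT and 9.13, 4.97 and 6.56 in HEA at 4 h. At 8 h E2f8 read 14.1, 14.8 and 14.5 RPKM in EV, 16.2, 15.6 and 18.1 in WT and 7.28, 9.55 and 8.15 in HEA. HEA lay below EV without overlap, by -0.86 ± 0.16 (adjusted p = 0.000233) and -0.77 ± 0.16 (adjusted p = 0.0006), and WT did not pass at either time.

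Rb1 and Rbl1, the pocket proteins that bind E2F, differed in their response to HEA. Rb1 read 4.17, 3.00 and 4.02 RPKM in EV, 2.40, 2.51 and 3.65 in WT and 6.66, 5.59 and 7.04 in HEA at 4 h. At 8 h Rb1 read 4.03, 4.87 and 3.98 RPKM in EV, 2.71, 2.89 and 2.19 in WT and 7.26, 8.42 and 7.56 in HEA. At 8 h the 3 groups were separate, with WT lowest and HEA highest, and at 4 h WT overlapped EV. Rb1 fell in WT at 8 h (-0.63 ± 0.16, adjusted p = 0.0038) and rose in HEA at both times (0.72 ± 0.16, adjusted p = 0.00104 and 0.79 ± 0.16, adjusted p = 0.000394). In WT at 4 h Rb1 did not pass (adjusted p = 0.116). It passed there as lower without the 3 farthest libraries (-0.64, adjusted p = 0.00695) and without replicate 3 of WT (-0.51, adjusted p = 0.0338). Rbl1 read 17.5, 15.4 and 18.6 RPKM in EV, 10.98, 11.2 and 13.3 in WT and 10.96, 11.1 and 12.6 in HEA at 4 h. At 8 h Rbl1 read 17.1, 19.3 and 17.3 RPKM in EV, 12.3, 13.3 and 11.4 in WT and 10.7, 11.7 and 10.4 in HEA. Both MycER forms lay below EV in every library. The differences were -0.52 ± 0.093 (adjusted p = 0.000382) and -0.52 ± 0.093 (adjusted p = 0.00021) in WT, and -0.55 ± 0.093 (adjusted p = 9.11e-05) and -0.68 ± 0.093 (adjusted p = 5.80e-06) in HEA, and all 4 calls held under every alternative tried.

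**Figure D3:**
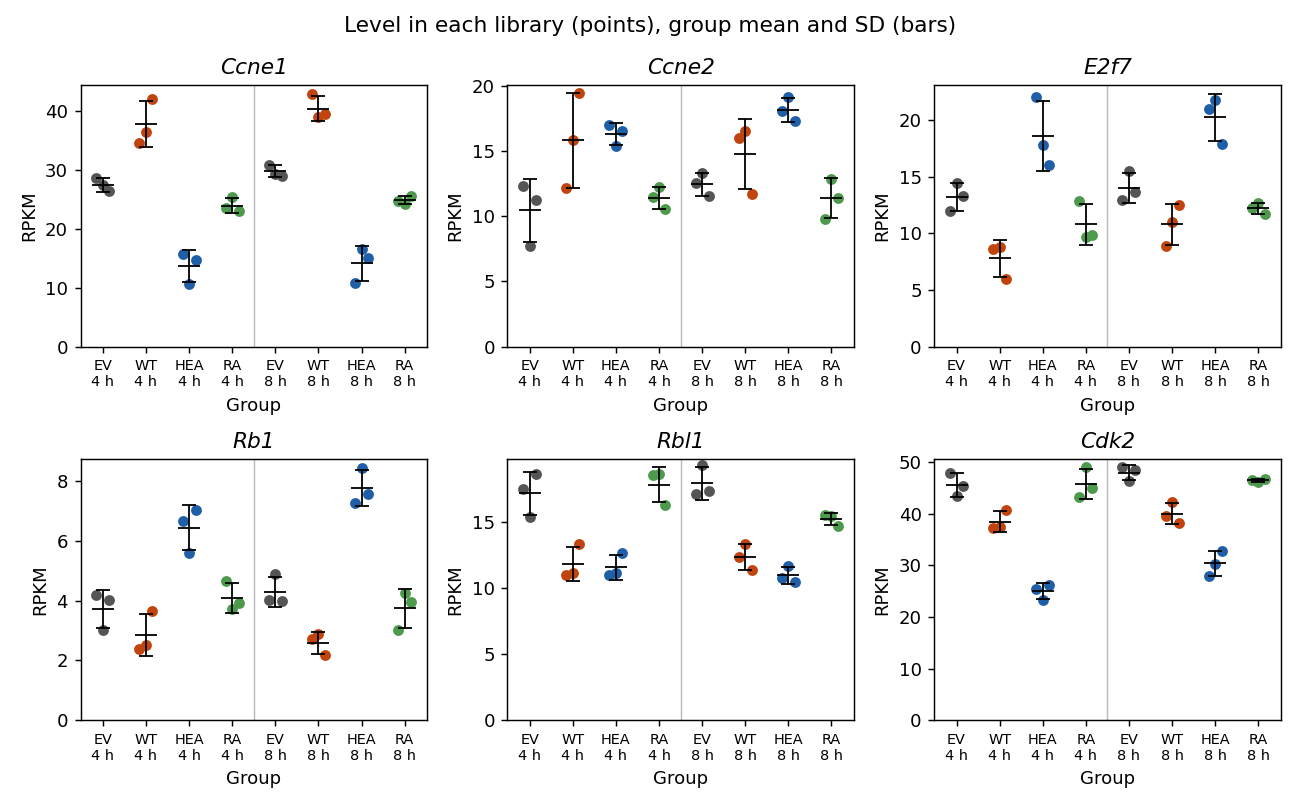
RPKM of 6 genes in every library (points) with the group mean and SD of 3 libraries (bars), by group and time in OHT; the axes start at 0. Ccne1 lay above EV in WT and below it in HEA, Ccne2 above EV in HEA, E2f7 and Rb1 below EV in WT (Rb1 at 4 h with overlap) and above it in HEA, and Rbl1 and Cdk2 below EV in both.

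More origin licensing genes passed as lower in HEA at 4 h than at 8 h, and almost none passed in WT. Of 12 genes 1 rose and 7 fell in HEA at 4 h, where 17.7% of all tested genes rose and 25.5% fell. At 8 h 1 rose and 3 fell in HEA, and these falls were no larger a share than the 27.5% of all tested genes that fell. The change of the difference from EV between the times in HEA passed for 0 of the 12. An unadjusted p under 0.05 was reached by 0 of them, so a difference between the times was not shown. In WT 1 rose at 4 h, where 11.6% of all tested genes did, and none passed at 8 h. Of the 6 subunits of the MCM helicase, 5 fell in HEA at 4 h and 3 at 8 h, and none passed in WT. Mcm7 read 99.2, 103 and 96.8 RPKM in EV, 101, 98.8 and 105 in WT and 82.0, 78.0 and 81.0 in HEA at 4 h. At 8 h Mcm7 read 102, 97.2 and 100.4 RPKM in EV, 94.8, 96.5 and 99.6 in WT and 78.2, 90.3 and 87.7 in HEA. The HEA libraries lay below all EV libraries at both times, by -0.31 ± 0.057 (adjusted p = 0.000185) and -0.23 ± 0.057 (adjusted p = 0.0027), and the call at 8 h was lost with median centring (0.0611). Mcm3, Mcm5 and Mcm6 fell in HEA at 4 h by similar amounts (-0.34 ± 0.074, adjusted p = 0.000958; -0.35 ± 0.072, adjusted p = 0.000595; -0.35 ± 0.081, adjusted p = 0.00151), and these calls held under every alternative tried. At 8 h Mcm5 (-0.22 ± 0.072, adjusted p = 0.0169) and Mcm6 (-0.27 ± 0.081, adjusted p = 0.00907) passed and Mcm3 did not (-0.17 ± 0.074, adjusted p = 0.0643), though Mcm3 did without replicate 2 of EV (0.0354) or of HEA (0.0311). These calls for Mcm5 and Mcm6 were lost without replicate 1 of HEA (0.142 and 0.0837) and with median centring (0.118 and 0.0505), and that for Mcm5 also without replicate 1 of EV (0.0843). Cdc6, which loads the helicase, fell in HEA at 4 h (-0.46 ± 0.090, adjusted p = 0.000381) and did not pass at 8 h (-0.20 ± 0.090, adjusted p = 0.0733), though it did without the 3 farthest libraries (0.0307) and with only the groups compared (0.0176).

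Orc1, the largest subunit of the origin recognition complex, was the 1 licensing gene that rose in HEA. It read 14.4, 17.8 and 16.9 RPKM in EV, 18.3, 17.7 and 17.6 in WT and 27.4, 24.1 and 23.98 in HEA at 4 h. At 8 h Orc1 read 16.9, 18.4 and 15.7 RPKM in EV, 17.9, 19.2 and 19.7 in WT and 25.1, 26.8 and 24.2 in HEA. All HEA libraries stood above all EV and WT libraries. The rise was 0.61 ± 0.089 (adjusted p = 1.70e-05) at 4 h and 0.57 ± 0.089 (adjusted p = 2.86e-05) at 8 h, and it passed under every alternative tried. Orc2, another subunit, read 37.5, 28.6 and 36.7 RPKM in EV, 39.5, 43.8 and 55.0 in WT and 37.9, 35.6 and 40.2 in HEA at 4 h. At 8 h Orc2 read 36.7, 35.9 and 36.3 RPKM in EV, 43.5, 45.8 and 33.2 in WT and 38.7, 41.8 and 39.6 in HEA. Its rise in WT at 4 h (0.42 ± 0.12, adjusted p = 0.0118) was lost without replicate 2 of EV (0.0815), without replicate 3 of WT (0.0977), without the 3 farthest libraries (0.122) and with only the groups compared (0.112). At 8 h Orc2 did not pass in WT (0.16 ± 0.12, adjusted p = 0.319), though it did without the 3 farthest libraries (0.00189). WT replicate 3 was the highest library at 4 h and the lowest WT library at 8 h.

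Helicase activation held a few calls. Of 7 genes, none passed in WT at 4 h, 1 rose and 1 fell at 8 h, 2 fell in HEA at 4 h, and 1 rose and 2 fell in HEA at 8 h. Of all tested genes 15.2% rose and 20.1% fell in WT at 8 h. In HEA 25.5% of them fell at 4 h, and 20.2% rose and 27.5% fell at 8 h. The falls in HEA among the 7 were thus near the background. Mcm10, which helps to open the helicase for DNA synthesis, read 21.1, 23.4 and 21.9 RPKM in EV, 22.7, 22.2 and 22.7 in WT and 14.04, 10.5 and 12.2 in HEA at 4 h. At 8 h Mcm10 read 23.9, 22.9 and 23.8 RPKM in EV, 27.7, 26.8 and 28.6 in WT and 13.6, 15.8 and 14.8 in HEA. HEA was far below EV at both times (-0.84 ± 0.080, adjusted p = 8.83e-08 and -0.66 ± 0.080, adjusted p = 1.26e-06). The rise in WT at 8 h was small (0.23 ± 0.080, adjusted p = 0.0309) and was lost without any single library of the 2 groups except replicate 2 of WT (adjusted p from 0.0596 to 0.0944) and without the 3 farthest libraries (0.0809).

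The GINS complex, which joins the helicase at its activation, moved unevenly. Gins1 fell in HEA, from 25.3, 21.7 and 22.7 to 15.3, 14.5 and 16.6 RPKM at 4 h and from 28.8, 26.7 and 25.7 to 17.3, 19.7 and 20.3 at 8 h (-0.57 ± 0.13, adjusted p = 0.00116 and -0.49 ± 0.13, adjusted p = 0.0033). Gins2 read 38.6, 38.1 and 34.3 RPKM in EV, 34.4, 30.6 and 34.3 in WT and 32.6, 27.4 and 35.2 in HEA at 4 h. At 8 h Gins2 read 37.6, 33.0 and 39.4 RPKM in EV, 29.2, 27.7 and 29.7 in WT and 30.7, 36.1 and 36.9 in HEA. It fell in WT at 8 h (-0.34 ± 0.10, adjusted p = 0.0151), a call lost without replicate 1 (0.0525) or 3 (0.0768) of EV or replicate 2 of WT (0.0509). Gins4 read 40.5, 40.4 and 39.7 RPKM in EV, 43.2, 38.9 and 51.6 in WT and 45.1, 46.4 and 43.9 in HEA at 4 h. At 8 h Gins4 read 45.6, 41.0 and 44.5 RPKM in EV, 43.8, 42.3 and 41.9 in WT and 47.8, 52.0 and 52.5 in HEA. It rose in HEA at 8 h (0.21 ± 0.080, adjusted p = 0.0338), a call lost without replicate 2 (0.134) or 3 (0.0563) of EV, replicate 2 (0.0935) or 3 (0.102) of HEA, and with no filter on low values (0.0566). Gins1 thus fell and Gins4 rose at 8 h among subunits of the same complex.

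Fork genes, the largest role, had the most falls in HEA by count. Of 14 genes, 1 rose and 11 fell at 4 h, where 17.7% of all tested genes rose and 25.5% fell. At 8 h 1 rose and 8 fell, where 20.2% and 27.5% did. In WT none passed at 4 h, where 11.6% of all tested genes rose and 14.4% fell. Pole alone rose in WT at 8 h, where 15.2% rose. Pola1, the catalytic subunit of the polymerase that starts each strand, read 18.4, 16.6 and 18.1 RPKM in EV, 17.1, 18.8 and 20.1 in WT and 12.8, 11.7 and 14.3 in HEA at 4 h. At 8 h Pola1 read 18.5, 19.6 and 17.4 RPKM in EV, 21.2, 21.4 and 17.7 in WT and 13.3, 14.8 and 14.1 in HEA. HEA lay below EV without overlap (-0.44 ± 0.088, adjusted p = 0.000433 and -0.38 ± 0.088, adjusted p = 0.00136). Prim1, the primase that works with it, fell in HEA at 4 h (-0.38 ± 0.083, adjusted p = 0.000924) and at 8 h (-0.26 ± 0.083, adjusted p = 0.0145). The second Prim1 call was lost without replicate 2 of EV (0.052), without replicate 1 of HEA (0.0875) and with median centring (0.0645). Pole, the catalytic subunit of the leading-strand polymerase, read 27.6, 29.4 and 27.7 RPKM in EV, 30.1, 28.9 and 27.4 in WT and 23.2, 24.3 and 23.8 in HEA at 4 h. At 8 h Pole read 23.97, 26.1 and 22.6 RPKM in EV, 27.6, 28.2 and 29.8 in WT and 20.3, 21.3 and 20.7 in HEA. At 8 h WT stood above and HEA below EV (0.23 ± 0.061, adjusted p = 0.00569; -0.21 ± 0.061, adjusted p = 0.007). In HEA at 4 h Pole also fell (-0.24 ± 0.061, adjusted p = 0.00328). The HEA call at 4 h was lost with only the groups compared (0.0514), and that at 8 h without replicate 2 of EV (0.0514), with quantile normalisation (0.0698) and with median centring (0.0848).

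The clamp loader, which places Pcna on DNA, was split in HEA. Rfc4 rose, with 25.3, 16.6 and 25.7 RPKM in EV, 21.6, 25.9 and 28.9 in WT and 33.9, 28.4 and 36.8 in HEA at 4 h. At 8 h Rfc4 read 29.8, 28.0 and 25.5 RPKM in EV, 29.98, 29.1 and 20.8 in WT and 36.9, 41.0 and 40.2 in HEA. All HEA libraries lay above all EV libraries (0.56 ± 0.15, adjusted p = 0.00461 and 0.50 ± 0.15, adjusted p = 0.00949). Rfc2 (-0.47 ± 0.086, adjusted p = 0.000216 and -0.37 ± 0.086, adjusted p = 0.00148) and Rfc3 (-0.55 ± 0.12, adjusted p = 0.00108 and -0.41 ± 0.12, adjusted p = 0.00883) fell, and these 6 calls of Rfc2, Rfc3 and Rfc4 held under every alternative tried. Fen1, the nuclease that trims Okazaki fragments, fell in HEA by -0.31 ± 0.080 (adjusted p = 0.0034) at 4 h and -0.29 ± 0.080 (adjusted p = 0.00492) at 8 h. Uhrf1, which helps copy DNA methylation onto new strands, read 56.5, 67.7 and 63.7 RPKM in EV, 69.0, 69.6 and 62.6 in WT and 51.3, 34.7 and 41.2 in HEA at 4 h. At 8 h Uhrf1 read 69.5, 65.5 and 69.5 RPKM in EV, 74.1, 73.3 and 80.6 in WT and 48.9, 56.4 and 54.6 in HEA. It fell in HEA (-0.57 ± 0.097, adjusted p = 8.16e-05 and -0.35 ± 0.097, adjusted p = 0.00505) and did not pass in WT.

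Over all the alternatives and with each library left out in turn, 24 of the 34 HEA calls at 4 h and 17 of the 28 at 8 h held, as did 8 of the 11 WT calls at 8 h and 2 of the 9 WT calls at 4 h, E2f7 and Rbl1. The calls in HEA at 4 h that were lost under at least 1 alternative and have not been described above were Ccnd3, Cdk4, Gmnn, Lig1, Mcm4, Pcna and Pola2. At 8 h they were Ccnd3, Lig1 and Rpa2.

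The difference between the forms was tested directly by comparing WT with HEA. At 4 h 30 of the 50 genes were higher and 4 lower in WT, where 26.9% of all tested genes were higher and 22.6% lower. At 8 h 26 were higher and 6 lower, where 24.6% and 23.4% of all tested genes were. At both times the share higher in WT was above the background and the share lower below it. The difference at Ccne1 was 1.45 ± 0.13 (adjusted p = 1.59e-08) at 4 h and 1.499 ± 0.13 (adjusted p = 5.99e-09) at 8 h, at Mcm10 0.86 ± 0.080 (adjusted p = 2.97e-08) and 0.89 ± 0.080 (adjusted p = 1.23e-08), and at E2f2 0.77 ± 0.17 (adjusted p = 0.000746) and 1.35 ± 0.17 (adjusted p = 1.01e-06). On the other side Rb1 (-1.06 ± 0.16, adjusted p = 1.46e-05 and -1.42 ± 0.16, adjusted p = 2.59e-07), E2f7 (-1.21 ± 0.15, adjusted p = 1.60e-06 and -0.88 ± 0.15, adjusted p = 5.87e-05) and Orc1 (-0.48 ± 0.089, adjusted p = 0.00018 and -0.41 ± 0.089, adjusted p = 0.000618) were lower in WT at both times. The difference held for Cdk2 as well (0.62 ± 0.067, adjusted p = 2.47e-07 and 0.39 ± 0.067, adjusted p = 5.25e-05), which was below EV in both forms. Rbl1 and Ccne2, called in the same direction in both forms at 4 h, did not pass between them (0.03 ± 0.093, adjusted p = 0.833 and -0.06 ± 0.16, adjusted p = 0.764). Of the calls between WT and HEA, 27 of 34 at 4 h and 22 of 32 at 8 h held under every alternative tried, and all those named here for Ccne1, Mcm10, E2f2, Rb1, E2f7, Orc1 and Cdk2 were among them.

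**Figure D4:**
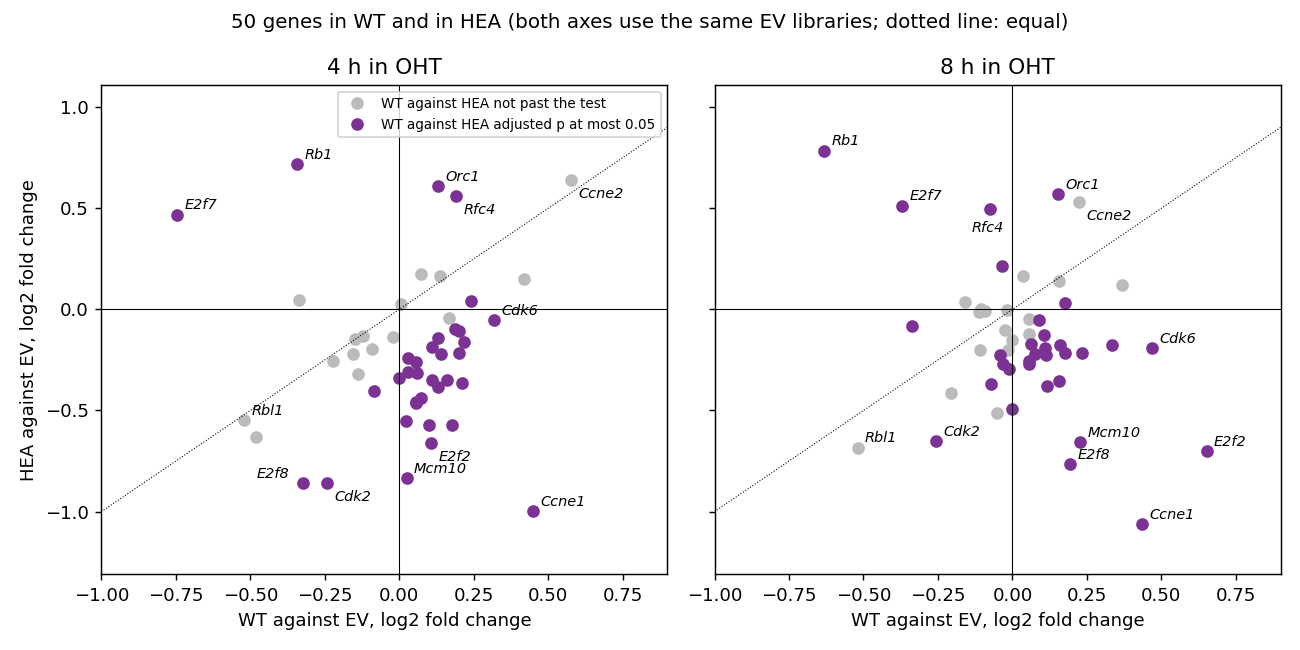
Each point is 1 of the 50 genes, with its log2 fold change against EV in WT (horizontal) and in HEA (vertical) at 4 h and 8 h, purple where WT and HEA differed by limma (34 genes at 4 h, 32 at 8 h); both axes use the same EV libraries. Ccne1 sits at the lower right and Rb1 and E2f7 at the upper left, while Rbl1 lies near the line of equal change.

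In RA 1 of the 50 genes differed from EV at 4 h and none at 8 h. At 4 h Cdc25a alone passed (-0.22 ± 0.057, adjusted p = 0.0281), with 26.8, 28.3 and 26.9 RPKM against 30.9, 32.6 and 32.2 in EV, and no gene rose, where 2.73% of all tested genes fell and 2.58% rose. The Cdc25a call was lost without replicate 2 (0.122) or 3 (0.0778) of EV, without replicate 1 (0.103), 2 (0.0509) or 3 (0.0689) of RA, with only the groups compared (0.17) and without the 3 farthest libraries (0.0697). At 8 h 0 of the 50 genes passed by limma, where 2.78% of all tested genes did, and 4 had an unadjusted p under 0.05, while voom on recovered reads also called 0. Ccne1 read 23.5, 25.4 and 23.1 RPKM in RA at 4 h and 24.7, 24.3 and 25.7 at 8 h, below every EV library of the same time, without passing. Rbl1, lower in both other forms, read 18.6, 18.6 and 16.3 RPKM in RA at 4 h and 15.5, 15.5 and 14.7 at 8 h. Orc1 read 17.0, 13.5 and 15.2 RPKM in RA at 4 h and 15.5, 15.4 and 15.3 at 8 h. At 8 h all RA libraries of Rbl1 and Orc1 lay below every EV library, and neither gene passed at either time. E2f2 read 2.75, 1.83 and 2.29 in RA at 4 h, below all EV libraries, with -0.52 ± 0.17 (adjusted p = 0.0736). At 8 h E2f2 read 3.40, 3.49 and 2.89 in RA and Cdc25a 27.9, 28.7 and 28.2, also below all EV libraries, without passing. Of the 50 genes 18 were fitted above 0 and 32 below in RA at 8 h, against 6292 and 5973 of all 12268 tested genes. RA was not tested against WT or HEA.

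Few of these genes passed the test between 4 h and 8 h. From 4 h to 8 h none of the 50 passed in EV, where 0.0245% of all tested genes did, and 6 had an unadjusted p under 0.05. None passed in RA either, where 0.22% of all tested genes did and 5 members had an unadjusted p under 0.05, and voom called 0 in both. In WT 5 rose and none fell, where 4.46% of all tested genes rose and 4.0% fell. These were E2f2, E2f8, E2f1, Mcm10 and Pola2, with log2 fold changes of 0.85, 0.71, 0.59, 0.29 and 0.25. In HEA Cdc6, Cdc45 and Cdk2 rose, by 0.48, 0.31 and 0.28, where 1.26% of all tested genes rose and 2.08% fell. An unadjusted p under 0.05 was reached by 11 of the 50 in WT (3140 of 12268 genes over all) and by 22 of the 50 in HEA (2227 of 12268). In HEA 44 of the 50 were fitted above 0, as were 6826 of 12268 genes, and the median was 0.18, against 0.03 over all. The number fitted above 0 was 40 in EV, 33 in RA and 32 in WT, with medians of 0.09, 0.05 and 0.07. Over all genes those medians were 0.02, 0.01 and -0.001. Over all 12268 genes 6722 were fitted above 0 in EV, 6433 in RA and 6084 in WT. With the change in EV taken off, 37 of the 50 were fitted above 0 in HEA, with a median of 0.08. Over all genes 6307 of 12268 were, with a median of 0.004. In WT 22 of the 50 were fitted above 0 and 28 below after the same step, against 5674 and 6592 over all. None of the 8 calls in WT and HEA passed with only the groups compared (adjusted p from 0.102 to 0.246). Without the 3 farthest libraries E2f2 alone of the 5 kept its call in WT. Pole2, Gins3 and Cdc45 were then also called as higher, which made 4 calls in WT. In HEA 9 members (8 higher, 1 lower) were called without those libraries. The count of 5 in WT was 2 without replicate 2 of WT at 4 h, 1 without replicate 3 at 4 h, and 2 without replicate 1 or replicate 3 at 8 h. The count of 3 in HEA was 7 without replicate 1 of HEA at 4 h or at 8 h, and 1 without replicate 2 at 4 h or replicate 2 or 3 at 8 h. The change of the difference from EV between the times passed for 0 of the 50 genes in WT and in HEA by limma (0.0163% of all tested genes in each), with an unadjusted p under 0.05 for 3 members in WT and 1 in HEA, and voom also called 0.

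A further 47 genes of the same pathway, no members of the list, were counted alongside. In WT 5 rose and 1 fell at 4 h and 9 rose and 1 fell at 8 h, in HEA 3 rose and 24 fell at 4 h and 6 rose and 20 fell at 8 h, and in RA none passed at either time. In WT 11.6% of all tested genes rose and 14.4% fell at 4 h, and 15.2% and 20.1% at 8 h. In HEA 17.7% rose and 25.5% fell at 4 h, and 20.2% and 27.5% at 8 h. The rises in WT thus lay near these shares. The 6 calls in WT at 4 h became 1 without replicate 3 of WT, 2 (both lower) without the 3 farthest libraries and 0 when EV and WT alone were fitted. Among the rises in WT at 8 h with the smallest p, Dna2, a nuclease and helicase of the lagging strand, had a log2 fold change of 0.63 in WT and -1.31 in HEA at 8 h. Pold2, a subunit of a replicative polymerase, rose by 0.31 and Tfdp1, the partner of E2F proteins on DNA, by 0.25 in WT at 8 h. Both also rose in HEA at 8 h, Pold2 by 0.22 ± 0.062 (adjusted p = 0.0065) and Tfdp1 by 0.15 ± 0.050 (0.0190). Both HEA calls were lost without replicate 2 of EV at 8 h (0.0600 and 0.0993), and that of Tfdp1 also without replicate 1 of HEA at 8 h (0.0672). Asf1b, a histone chaperone, was the 1 gene that fell in WT at 8 h, with -0.49, and it was -0.83 in HEA. Of 7 inhibitors of cyclin-dependent kinases 6 were tested, and 5 fell in WT at each time. In HEA 1 rose at each time, and 2 fell at 4 h and 1 at 8 h, the fall at 8 h being lost without replicate 1 of EV or of HEA. Cdkn1a, which encodes the inhibitor p21, averaged 3.49 RPKM in EV, 1.05 in WT and 17.9 in HEA at 8 h, with log2 fold changes of -1.40 in WT and 2.21 in HEA.

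Promoter motifs and calls were set side by side as a description. Of the 14 members with an E2F site, 2 rose and 10 fell in HEA at 4 h, against 1 and 14 of the 25 with none of the 4 sequences. At 8 h 2 rose and 9 fell of the 14, against 1 and 9 of the 25. Of the 5 members with an E-box, 2 rose and none fell in WT at both times, Cdk6 and E2f3. Of the 34 without an E-box, 3 rose and 3 fell in WT at 4 h and 4 rose and 2 fell at 8 h. In HEA 3 of the 5 fell at 4 h and 1 at 8 h, against 21 and 17 of the 34, of which 3 also rose at each time. The direction in HEA was not shared among promoters with E2F sites: Orc1 and E2f7 rose and Rbl1, Cdk2, Mcm6 and Mcm7 fell.

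The authors' deposited table of comparisons with EV gave fewer falls in HEA than limma at 4 h and a similar number at 8 h. At an adjusted p of at most 0.05, the authors' deposited table has 5 members higher and 21 lower in HEA at 4 h (16.8% and 16.2% of the genes to which it gives an adjusted p) and 9 and 20 at 8 h (24.5% and 25.3%). In WT the authors' deposited table has 4 higher and 2 lower at 4 h (7.84% and 9.2%) and 8 and 5 at 8 h (15.6% and 17.0%). In RA at 8 h the authors' deposited table has 6 members lower, Ccnd2, Ccne1, E2f2, E2f8, Rbl1 and Orc2, where 7.65% of its genes were higher and 8.16% lower, and none of these passed by limma. In RA at 4 h the authors' deposited table has E2f2 alone, lower, where 2.22% of its genes were higher and 3.13% lower. Of its calls in HEA, all 26 at 4 h and 25 of 29 at 8 h were also called by limma in the same direction. Conversely, of the 29 falls by limma in HEA at 4 h it has 21, and of the 22 at 8 h it has 19.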

How the data were processed

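Per the labels' protocols, RNA of the 24 libraries went over columns with a DNase step and then through a TruSeq kit for stranded libraries of total RNA. DESeq2, SAMtools, featureCounts 1.4.5-p1, TopHat and TopHat2 2.0.8 appear in the submitters' processing notes beside the build mm9, and their roles and order are not given. The strand setting and the annotation behind the values are not stated. The authors deposited RPKM values of 21671 genes in each library. A second table, also deposited by the authors, compares the groups with EV by log2 fold changes and adjusted p-values, which entered no test here.

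RPKM are not counts, so limma-trend (limma 3.58.1, R 4.3.3) was run on log2(RPKM + 0.5) over the 12268 genes with at least 1 RPKM in at least 3 libraries, in 1 fit of the 8 group means (16 residual degrees of freedom), with Benjamini-Hochberg adjustment over all tested genes within each of 14 comparisons and a threshold of 0.05. The scale understates changes of low genes. Whole reads were recovered from the steps of RPKM for all 17870 genes above 0 in any library, each of 362673 values above 0 lying within 0.01 read of a whole number. They gave library totals of 9.82 to 12.8 M (median 10.9) and an alternative test. Genes that share reads with a copy, overlapping genes and antisense partners cannot be told apart in these values.

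The 50 genes, the lists and the tests were chosen with earlier results of these data known. Values in every library are given for members called against EV in WT or HEA, up to 6 rises and 6 falls with the smallest p in each comparison. Of the further pathway genes, those with the smallest p in WT at 8 h, up to 3 in each direction, are named. Other members were named after their values were seen. Alternatives were quantile normalisation, centring on library medians, pseudocounts of 0.1 and 1, no filter, no trend, only the groups compared, the replicate number as a block, and leaving out each library. Limma-voom on recovered reads and a fit without the 3 farthest libraries were added after seeing the data. The code was tested on simulated data. Tables and figures used Python 3.11.15, pandas 2.3.3 and matplotlib 3.10.9. Promoters came from RefSeq (GRCm38.p6).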

Additional observations from a re-analysis of the deposited data

How the results depend on the processing

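No called value changed sign under any alternative run. The planned edgeR test on recovered reads was not run, because the deposited values are RPKM, and limma-voom took its place, chosen after seeing the data. The 50 genes gave other counts of calls as follows. In WT against EV at 4 h the count of 9 became 14 with median centring and 3 with only the groups compared. For RA against EV at 4 h the count of 1 became 2 with quantile normalisation, and 0 without the 3 farthest libraries and with only the groups compared, and at 8 h the 0 became 2 with only the groups compared, Ccne1 and Orc2. From 4 h to 8 h the 5 calls in WT became 3 with quantile normalisation and 0 with only the groups compared, and the 3 in HEA became 9 without the 3 farthest libraries and 0 with only the groups compared. Fitting only the groups compared leaves fewer libraries to estimate the spread. The cause of the other changes was not tested. With each library left out in turn the counts ran from 7 to 12 in WT at 4 h, 8 to 11 in WT at 8 h, 27 to 35 in HEA at 4 h, 20 to 27 in HEA at 8 h, 0 to 1 in RA at 4 h, 32 to 34 and 25 to 29 between WT and HEA at 4 h and 8 h, 1 to 5 for time in WT and 1 to 7 for time in HEA, and stayed at 0 for the other 5 comparisons. Same-numbered libraries did not deviate together (median r 0.02 over 84 pairs, from -0.60 to 0.41, and 9 of 24 libraries correlated best with their own number), so the numbers were not taken as pairs. With the replicate number as a block 9, 11, 34 and 27 genes were called in WT at 4 h, WT at 8 h, HEA at 4 h and HEA at 8 h, Rpa2 (adjusted p = 0.0586) being the call lost at 8 h. Median centring moved the higher share of all calls in WT at 8 h from 43.0% to 55.2%, at 4 h from 44.7% to 57.3%, and in HEA at 8 h from 42.3% to 53.6%. Depth limits E2f2 and Rb1 most, with as few as 76 and 102 reads in a library.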
